A study of Pyronema omphalodes CBS 100304 with 6 samples.

Results

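The cytosolic ribosomal proteins described here are the products of all gene models of the filamentous ascomycete *Pyronema confluens* whose predicted product named a 40S or 60S ribosomal protein, with or without the word acidic, and not a mitochondrial one. These members were 86 of 13369 models, 38 for the 40S subunit and 48 for the 60S subunit. They carried 76 distinct protein names once suffixes for isoforms were dropped, 67 of them with 1 model, and the other 9 names were shared by 19 models. Ribosomes join a small subunit, which reads the messenger RNA, to a large subunit, which forms the peptide bonds, and each subunit is built from ribosomal RNA and a fixed set of ribosomal proteins. In the cytosol of eukaryotes the subunits are named 40S and 60S, and each finished ribosome holds the proteins of a subunit in equal copy, with the acidic stalk proteins as an exception. In the yeast *Saccharomyces cerevisiae* the genes for these proteins are among the most strongly transcribed and are known to rise and fall together with growth and nutrients. All gene functions named below come from the deposited product descriptions or from the related proteins of other species, and none was tested in *P. confluens*.

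RNA was sequenced from vegetative mycelium of strain CBS 100304 after 36 hr in constant darkness (DD36, the subjective morning) and after 24 hr (DD24, the subjective evening), to look for genes under control of the circadian clock. Each time point had 3 independent biological replicates, a, b and c. All cultures grew at 25° with shaking, were first held in constant light, and reached about the same total growth time because the transfer to darkness was staggered. By the study's methods the cultures were in stationary phase at harvest, where mycelial growth had ceased, so that the values describe ribosomal protein genes in mycelium that was not expanding. With 2 time points, a rhythm could not be seen as such, and bulk RNA cannot tell a change in the RNA per cell from a change in how many cells carried it.

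The counts of a library summed to between 806459 and 1132608, and 5466 of the 13369 models had enough counts to be tested. These sums were far below the numbers of mapped reads that the study reported for the same libraries. How the deposited counts relate to those reads is not given in the sources used here. Levels are given as CPM, that is counts scaled to the library's sum over the tested genes and its TMM factor, and a floor of 3 counts, which a count of 0 does not exclude, stood for 2.55 to 4.73 CPM. A model outside the members, *PCON_08583*, took 30.7% to 52.2% of the counts, the most in DD24 replicate a, whose TMM factor of 0.728 lay apart from the range of 1.02 to 1.13 in the other libraries. Shares of all counts therefore move with this model, and scaled values are used unless stated. The tissue label was checked on models for meiosis and fruiting. Those for SPO11, DLH1, mei2 and the fruiting body protein SC7 had 0 to 2 counts in each library, and that for the kinase mek1 had 0 to 3. The mating type model MAT1-1-1 had 7 to 11 counts. A model similar to the meiotic transcription factor NDT80 had 82, 106 and 97 counts in DD36 replicates a, b and c, against 76, 146 and 72 counts in DD24. These models were picked by name from a list of 56 for sexual development, of which 31 had enough counts to be tested, against 5466 of all 13369 models. Others of the list had more counts. *PCON_01122*, similar to a negative regulator of sexual conjugation and meiosis, had 92, 87 and 138 counts in DD36, against 41, 72 and 51 counts in DD24. The low counts of the picked models therefore do not settle the tissue label.

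The summed levels of both subunits were 1.15 times as high in DD36 as in DD24, with replicates that overlapped or nearly touched, and the balance of the subunits could not be told apart between the time points. The 86 members together had 23912, 22599 and 24387 CPM in DD36 replicates a, b and c, against 22679.7, 17906 and 21318 CPM in DD24. All 3 DD36 values lay above 2 of the DD24 values, and DD24 replicate a lay just above DD36 replicate b, so that the time points overlapped. The summed level of the 40S members was 9739 ± 429 CPM in DD36 and 8505 ± 994 CPM in DD24 (SD, n = 3 each), and that of the 60S members 13894 ± 498 CPM in DD36 and 12130 ± 1467 CPM in DD24. For 40S the time points overlapped, and for 60S DD36 replicate b at 13331 CPM lay just above DD24 replicate a at 13318 CPM. DD24 replicate b was the lowest library for both subunits, at 7415 CPM for 40S and 10491 CPM for 60S.

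The 40S members took 41.2%, 41.0% and 41.4% of the member counts in DD36 replicates a, b and c, against 41.3%, 41.4% and 41.0% in DD24. Their 95% Clopper-Pearson intervals, which cover counting error only, ran from 40.4% to 42.04% in DD36 and from 40.3% to 42.09% in DD24, so that the 6 libraries could not be told apart. The mean share was 41.2% ± 0.219 in DD36 and 41.2% ± 0.218 in DD24 (SD, n = 3 each). As a share of all counts, with *PCON_08583* included, the members held 2.41%, 2.51% and 2.70% in DD36, against 1.63%, 1.81% and 2.18% in DD24. Without *PCON_08583* and the models with bacteriophage products the shares were 4.34%, 3.88% and 4.16% in DD36, against 3.74%, 2.93% and 3.59% in DD24. Neither form of the share overlapped between the time points, while the scaled sum over all members did, and no test was run on these sums.

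**Figure D1:**
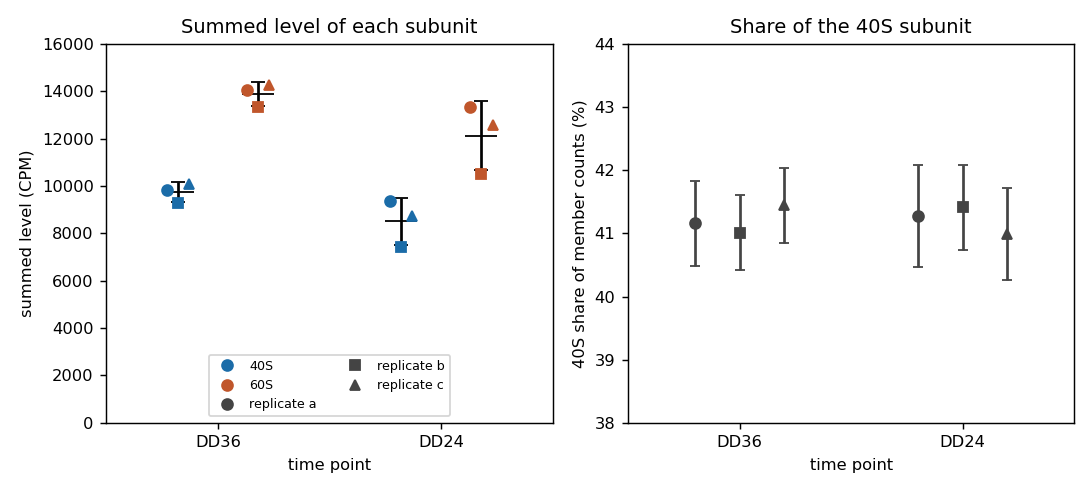
Summed level of the 40S and 60S members in CPM (left, marks are libraries, crosses the mean and bars the SD of 3 libraries) and the share of member counts taken by the 40S members in percent (right, bars are 95% Clopper-Pearson intervals), DD36 left of DD24. DD24 replicate b is lowest for both subunits, and the 40S share stays between 41.0% and 41.4%.

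Levels of different genes were compared as CPM per kilobase of the mRNA model. The members had a median of 299 CPM per kilobase over all 6 libraries, with 286 for the 38 models of 40S and 302 for the 48 models of 60S, where the genes tested had a median of 22.9. Of the 83 members tested, the median rank was 224 of 5466, counted from the highest level. The highest 40S member was *PCON_11999* (S1, which lines the mRNA exit of the small subunit) with a mean of 587 and a range of 468 to 695 CPM per kilobase over the libraries. It was followed by *PCON_13767* (S23, of the decoding centre) at 489.5 and *PCON_03646* (S17) at 488. Among 60S members *PCON_13643* (L3, near the peptidyl transferase centre) was at 542, *PCON_06559* (L10a, of the L1 stalk) at 470.3 and *PCON_09265* (L29) at 466 CPM per kilobase. The 79 members above 100 CPM per kilobase spanned 113 to 587, a 5.19-fold range. In the order of all members by level, 83 of the 85 steps between neighbors had overlapping ranges over the libraries. The order of neighbors was therefore mostly not resolved, and these overlaps do not measure how wide the range is.

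The 7 members at or below 100 CPM per kilobase were all weaker models of a shared protein name. They were *PCON_13267* (S20, 68.4 CPM per kilobase), *PCON_10132* (S19, 53.0), *PCON_02290* (L30-2, 47.5), *PCON_06638* (S8-A, 34.5), *PCON_12175* (S22, 13.96), *PCON_08290* (L11-B, 3.33) and *PCON_12039* (S27, 2.43). The last 3 were the members that did not pass the filter on low counts. *PCON_12039* had 3, 1 and 1 counts in DD36 replicates a, b and c, against 0, 0 and 1 counts in DD24. *PCON_08290* had 1, 1 and 6 counts in DD36, against 0, 2 and 1 counts in DD24, and *PCON_12175* 7, 6 and 7 counts in DD36, against 4, 6 and 4 counts in DD24. None of these 3 had more than 7 counts in a library, and no fold change is given for them. The lowest members above 100 CPM per kilobase were *PCON_11708* (L28e, 113), *PCON_13133* (L44, 114) and *PCON_01024* (S3, 119). The model of *PCON_13133* predicts a protein of 450 residues, and the mRNA model of *PCON_01024* has 2250 bases and overlaps its neighbor.

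**Figure D2:**
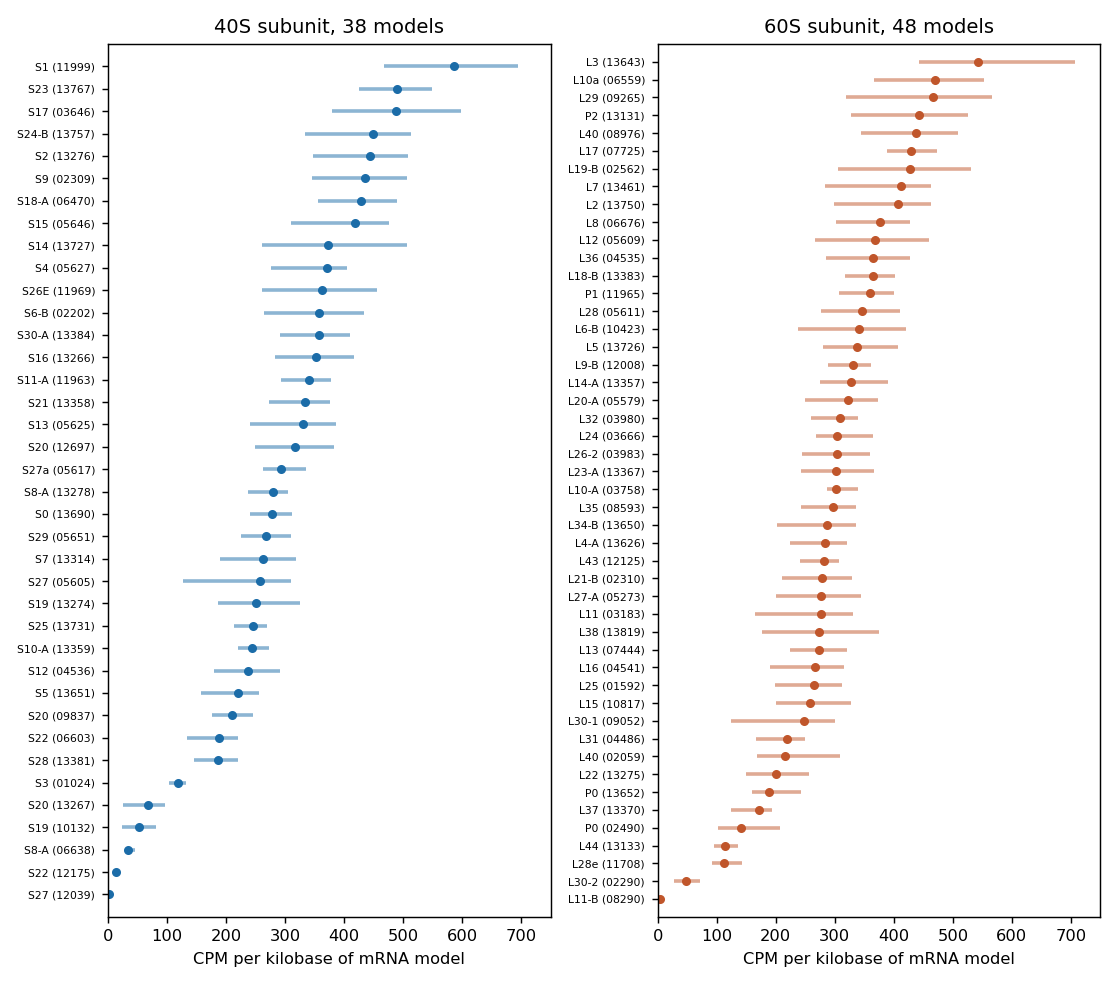
Mean CPM per kilobase of mRNA model of each member over the 6 libraries (points), with the lowest and highest library (bars), in order of level within the 40S (left) and 60S (right) subunit; numbers in parentheses are the gene model numbers. Most members lie between 113 and 587 CPM per kilobase, and the models at the bottom are weaker copies of a shared protein name.

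The comparison of DD36 *vs.* DD24 asked whether ribosomal protein genes differ between the subjective morning and evening. No member passed. The quasi-likelihood test of edgeR called 0 of the 83 members tested at an adjusted *P* under 0.05, and 0.0% of all genes tested. The members nevertheless had fitted values on one side. Of the 83, 79 had a fitted log2 fold change above 0 (34 of 36 for 40S and 45 of 47 for 60S), where the background was 49.7% of all genes tested. The median log2 fold change was 0.20 over the members, 0.19 for 40S and 0.22 for 60S, and -0.0022 over all genes tested. At an unadjusted *P* under 0.05 from edgeR, 11 members were on the higher side (3 of 40S and 8 of 60S) against a background of 2.38% of all genes tested, and 0 on the lower side against 4.61%. The medians of the subunits differed by -0.029 (40S minus 60S), less than the SD of 0.0489 of this difference over the 3 pairs of libraries with the same letter.

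Libraries of the same letter deviated together, and the counts of members are therefore given again from a model that holds the letter as a block. With the block 0 members and 71 genes (1.3% of all genes tested) were called at an adjusted *P* under 0.05 from edgeR. On the higher side at an unadjusted *P* under 0.05 there were 25 members (10 of 40S and 15 of 60S, with a background of 4.13%), and 0 on the lower side (7.45%). With the block 81 of 83 members had a fitted log2 fold change above 0 (50.1% of all genes tested), and the lowest adjusted *P* of a member was 0.0995 (edgeR with the block, *PCON_04541*). The other tools, DESeq2 and limma-voom, called 0 members as well, and 19 and 0 of all genes tested. At an unadjusted *P* under 0.05 DESeq2 gave 2 members and limma-voom 14. Shares of all genes at this *P* were computed only for the edgeR fits with all libraries, without and with the block. The count of 11 without the block was 3, 5 and 4 without DD36 replicate a, b or c, 4 without DD24 replicate b and 17 without DD24 replicate c. The median of all members was 0.11 without DD24 replicate b, with 66 of 83 members above 0.

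**Figure D3:**
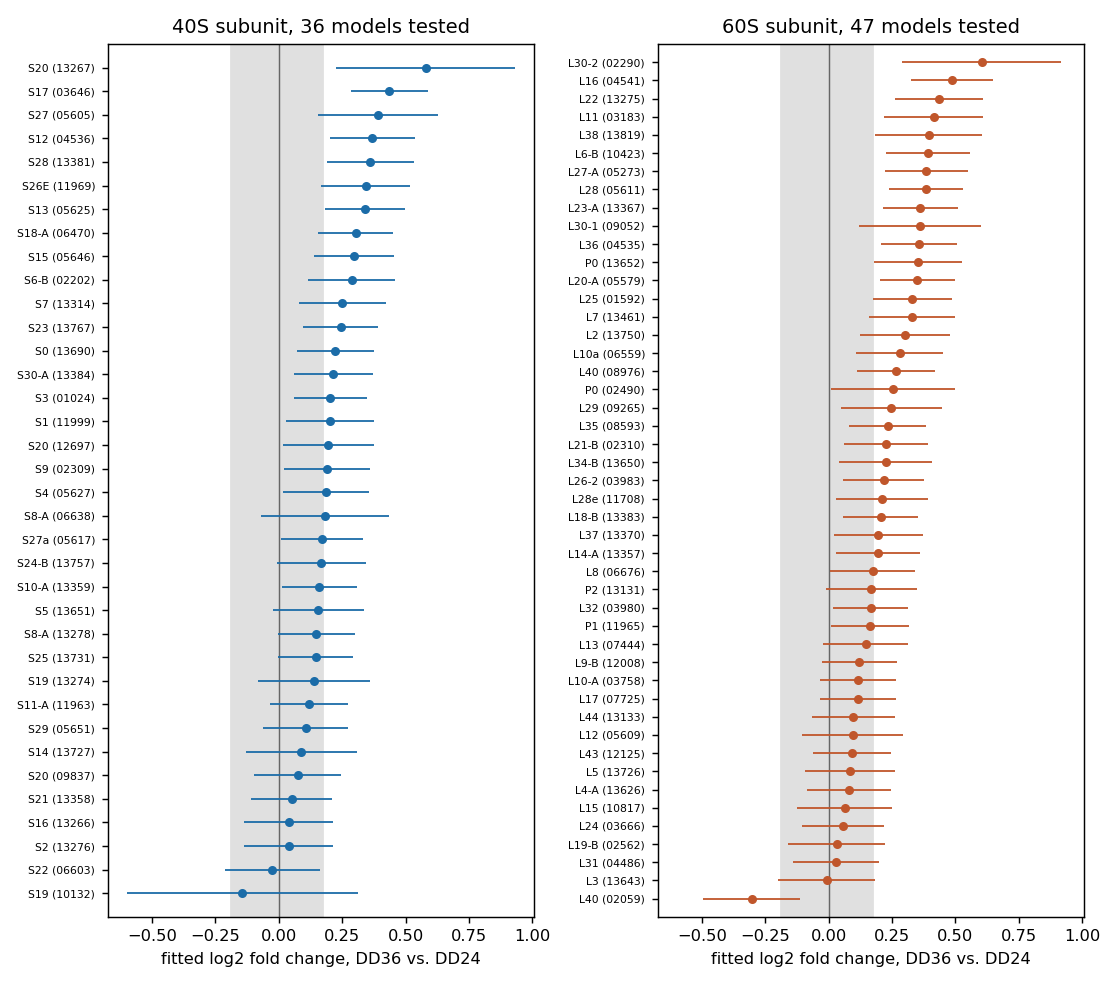
Fitted log2 fold change of DD36 *vs.* DD24 (points) with its standard error (bars) from edgeR for the 36 members of 40S (left) and 47 of 60S (right) tested; the grey band runs from the lower to the upper quartile of all genes tested. Most members lie to the right of 0, and *PCON_02059* (L40) is lowest at -0.30.

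Of the 60S members, *PCON_04541* had the smallest *P*. It encodes L16, a protein of the family called L13a in mammals. It had 424, 412 and 417 CPM in DD36 replicates a, b and c, against 288, 254 and 353 CPM in DD24. All DD36 libraries were above all DD24 libraries. Its log2 fold change was 0.49 (standard error 0.16, adjusted *P* = 0.579 from edgeR). *PCON_05611* encodes L28, whose counterpart in yeast is altered in mutants that resist cycloheximide, and had 266, 281 and 296 CPM in DD36, against 232, 198 and 218 CPM in DD24. *PCON_13367* (L23-A, which lies at the interface with the small subunit) had 265, 241 and 232 CPM in DD36, against 195, 176 and 204 CPM in DD24. In these genes, too, the time points did not overlap, with log2 fold changes of 0.38 and 0.36. *PCON_04535* (L36) had 307, 275 and 301 CPM in DD36, against 241, 205 and 245 CPM in DD24 (log2 fold change 0.36, standard error 0.15). *PCON_13275* encodes L22, an RNA-binding protein of the large subunit, and had 153, 129 and 165 CPM in DD36, against 104, 97.0 and 129.7 CPM in DD24. Here DD24 replicate c was just above DD36 replicate b, and the log2 fold change was 0.44 (standard error 0.17). The adjusted *P* of these 4 genes was between 0.657 and 0.699 (edgeR).

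Among the 40S members *PCON_03646* led by *P*. It encodes S17, which is found in the small subunit of eukaryotes and archaea, and had 349.7, 311 and 364 CPM in DD36 replicates a, b and c, against 250.5, 232 and 276 CPM in DD24. The DD36 values were all higher than the DD24 values, and the log2 fold change was 0.44 (standard error 0.15, adjusted *P* = 0.589 from edgeR). *PCON_04536* (S12, of the beak of the small subunit) had 153, 147 and 171 CPM in DD36, against 146, 106 and 115 CPM in DD24. *PCON_05625* (S13) had 303, 288 and 277 CPM in DD36, against 189, 237 and 258 CPM in DD24. Neither gene overlapped between the time points, although DD36 replicate b and DD24 replicate a were nearly equal for *PCON_04536*. *PCON_06470* (S18-A, of the head of the small subunit) had 283, 312 and 309 CPM in DD36, against 239, 226 and 268 CPM in DD24, again without overlap. *PCON_13381* (S28) had 111, 128 and 130.4 CPM in DD36, against 115, 85.7 and 89.7 CPM in DD24, and DD24 replicate a was above DD36 replicate a. The log2 fold changes of these 4 genes were between 0.30 and 0.37, with adjusted *P* between 0.708 and 0.726 (edgeR).

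Counted over all members without a model, the values of 19 (7 of 40S and 12 of 60S) were higher in DD36 than in DD24 without overlap, against 6.02% of all genes tested, and those of 0 members were lower without overlap (5.87%). Within pairs of libraries with the same letter, 40 members (20 of each subunit) were higher in DD36 in 3 of 3 pairs, where the background was 15.9% of all genes tested, and 1 was lower in 3 of 3 pairs (16.1%). The background is not matched for level. The members tested had a median of 259 CPM and a median standard error of 0.17, against 41.7 CPM and 0.25 over all genes tested. Members also moved together over the libraries, so that these counts and those by unadjusted *P* are not of separate events.

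The acidic stalk of the large subunit is a flexible arm that recruits the GTPases of translation. It consists of P0, which anchors it to the rRNA, and several copies of the small proteins P1 and P2. *PCON_11965* (P1) had 274, 328 and 328 CPM in DD36 replicates a, b and c, against 302, 251 and 280.0 CPM in DD24, and *PCON_13131* (P2) had 283, 286 and 329.6 CPM in DD36, against 337, 211 and 257 CPM in DD24. Both overlapped between the time points and had log2 fold changes of 0.16 and 0.17 (standard error 0.15 and 0.18). P0 was split over a pair of models. *PCON_13652* had 277, 261 and 182 CPM in DD36, against 187, 188 and 188 CPM in DD24, and *PCON_02490* had 141, 168 and 253 CPM in DD36, against 142, 125 and 207 CPM in DD24. DD36 replicate c was the lowest of its time point for *PCON_13652* and the highest for *PCON_02490*. Per kilobase, P2 was at 442, P1 at 359, and the models of P0 at 188 and 141 CPM.

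A fitted log2 fold change below 0 was found in 4 of the members tested, and in 1 of these it was larger than its standard error. This was *PCON_02059*, whose product is named, by its match, a fusion of ubiquitin with L40, from which ubiquitin is cut after translation. It had 145, 188 and 168 CPM in DD36 replicates a, b and c, against 169, 267 and 179 CPM in DD24. DD24 replicate b was far above the other 5 libraries, in which the time points overlapped. The log2 fold change was -0.30 (standard error 0.19, adjusted *P* = 0.792 from edgeR), and it was the member that was lower in DD36 in all 3 pairs. Without DD24 replicate b it was -0.059. The other members below 0 were *PCON_10132* (S19, -0.14), *PCON_06603* (S22, -0.026) and *PCON_13643* (L3, -0.0068), and all of these turned to values above 0 under some alternative. *PCON_13643* had 679, 596 and 678 CPM in DD36, against 852, 534 and 579 CPM in DD24, where replicate a of DD24 was the highest of all libraries. For the 40S subunit *PCON_05617* is named a ubiquitin fusion with S27a by its match, though its model predicts only 81 residues. It had 101, 121 and 112 CPM in DD36, against 94.5, 97.9 and 104 CPM in DD24, with a log2 fold change of 0.17 (standard error 0.16).

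The size of the difference depended on the pair of libraries. The median log2 ratio of DD36 to DD24 over the members was 0.088 in pair a, 0.32 in pair b and 0.21 in pair c, with 52, 81 and 68 of the 83 members above 0. The subunits had the same order of pairs, with 0.084, 0.30 and 0.22 for 40S and 0.11, 0.38 and 0.21 for 60S. The larger ratio of pair b went with a low DD24 library. Each library was set against the mean of the other libraries of its time point, which gives larger distances than the mean of all of them. On the log2 scale the median member was at -0.29 in DD24 replicate b, at 0.18 in replicate a and at 0.10 in replicate c. The median over all genes tested was between -0.014 and 0.023 in these libraries. In DD36 the members were at 0.032, -0.10 and 0.077 in replicates a, b and c. Replicate b was the library with the lowest members at both time points and the medians of the DD24 libraries lay farther apart than the median difference between the time points. What set these libraries apart was not tested.

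**Figure D4:**
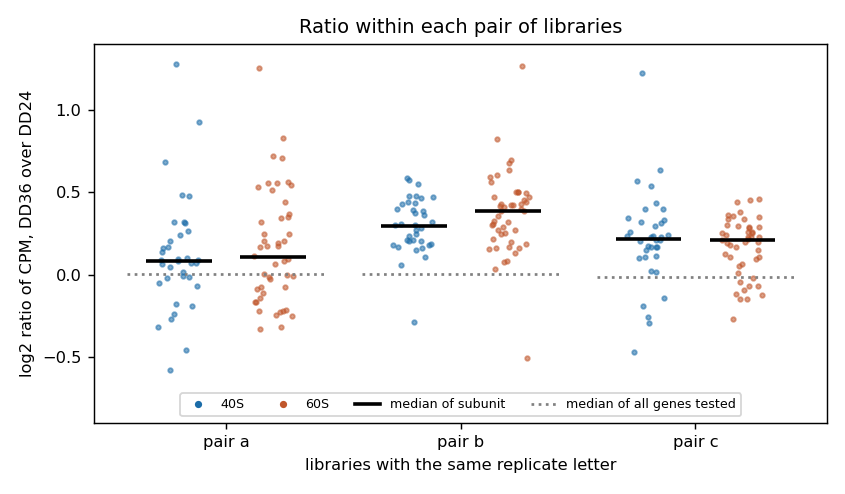
Log2 ratio of CPM, DD36 over DD24, of each member tested in the 3 pairs of libraries with the same letter, for 40S and 60S (points), with the median of the subunit (black line) and of all genes tested (dotted line). The medians are lowest in pair a (0.084 and 0.11) and highest in pair b (0.30 and 0.38), and pair a has the most members below 0.

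As a description of how alike the members were, the log2 CPM of each pair of members was correlated over the 6 libraries, which share their scaling and depth. The median Pearson correlation was 0.557 over 630 pairs within 40S, 0.596 over 1081 pairs within 60S and 0.584 over 1692 pairs between the subunits, so that the 3 medians lay close together beside the spread of the pairs. Against the median of all members over the 6 libraries, *PCON_05646* (S15) had the highest correlation at 0.994. The lowest was that of *PCON_02059* (L40) at -0.85, followed by *PCON_10132* (S19) at -0.34 and *PCON_09837* (S20) at -0.033. All 3 belong to protein names with more than 1 model.

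The 9 shared protein names fell into those served almost by a single model and those served by several. The counting of reads that match near-identical copies is not given in the sources used here, so that shares between copies are uncertain. The leading model held 99.6% of the counts of its name for S27, 99.2% for L11 and 97.1% for S22, over all libraries. It held 90.6% for S8, 84.8% for L30 and 84.1% for S19. For L40, P0 and S20 the leading model held 56.8%, 55.2% and 50.2%. The other models of S20, a protein of the head of the small subunit, held 37.7% (*PCON_09837*) and 12.2% (*PCON_13267*).

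L40 was the name whose leading share differed most between DD36 and DD24. Both L40 models are named ubiquitin fusions, by the same match. *PCON_08976*, the leading L40 model, held 64.4%, 58.4% and 63.3% of the L40 counts in DD36 replicates a, b and c, against 58.0%, 42.3% and 58.2% in DD24. All DD36 shares were above all DD24 shares although DD36 replicate b and DD24 replicate c were nearly equal, and the difference of the means was 9.15 points. An exact two-sided permutation test gave *P* = 0.1, the smallest that 3 against 3 libraries allow, and an adjusted *P* of 0.9 over the 9 names, so that the design could not pass. The difference was between 3.89 and 11.8 points when a library was left out, the lowest without DD24 replicate b. In CPM *PCON_08976* had 262, 264 and 289 in DD36, against 233, 196 and 249.7 in DD24, without overlap, so that the models of this name had fold changes of opposite sign. For the other 8 names the exact permutation test gave *P* between 0.3 and 1.

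In S19 and P0 the shares differed more between replicates than between time points. The minor S19 model *PCON_10132* held 25.7%, 15.0% and 6.19% of the S19 counts in DD36 replicates a, b and c, against 17.8%, 21.9% and 12.4% in DD24. The P0 model *PCON_13652* held 66.2%, 60.8% and 41.8% of the P0 counts in DD36, against 56.9%, 60.1% and 47.5% in DD24. In both names replicate c was at an extreme at both time points. The largest fold changes of all members belonged to weak copies. *PCON_02290* (L30-2, whose counterpart L30 in yeast binds its own transcript) had 20, 42 and 29 counts in DD36, against 9, 17 and 23 counts in DD24, with a log2 fold change of 0.60 (standard error 0.31). *PCON_13267* (S20) had 44, 63 and 37 counts in DD36, against 17, 54 and 12 counts in DD24, with a log2 fold change of 0.58 (standard error 0.35). The time points overlapped in both, and their standard errors were among the largest of the members.

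**Figure D5:**
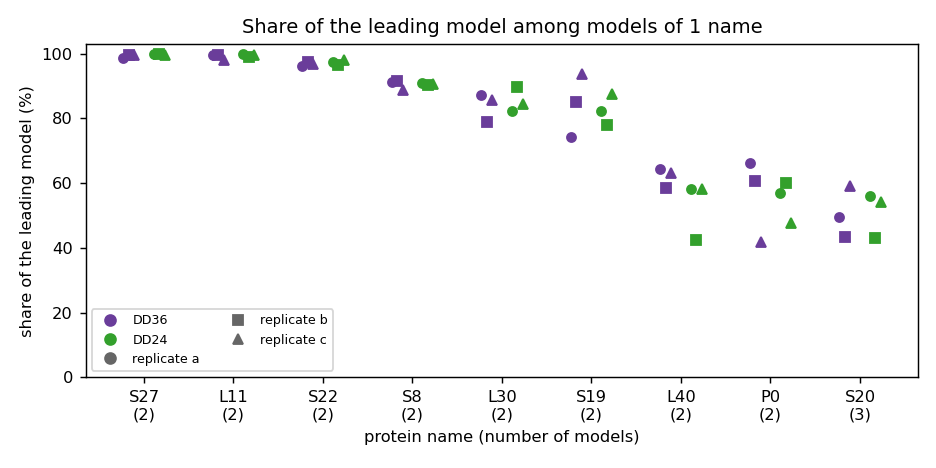
Share of the counts of a protein name held by its leading model, in percent, for the 9 names with 2 or 3 models (number below the name), with DD36 left of DD24 and a mark for each replicate. The share is above 96% for S27, L11 and S22, near 50% for S20, and for L40 all DD36 marks lie above the DD24 marks.

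The gene models of the members were described by features that the choice of members did not use. All 86 models had at least 1 intron, but so did 88.6% of all models and 91.9% of the genes tested, so that this sets the members little apart. Their median was 3 introns, with a range of 1 to 6, against 1 over all models and 2 over the genes tested. The coding sequences were short, with a median of 453 bases against 795 over all models and 1383 over the genes tested, and the 3′ untranslated regions had a median of 223 bases against 146 over all models and 190 over the genes tested. For the 5′ untranslated regions the medians were 91 bases in the members, 95 over all models and 111 over the genes tested.

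The members were also unevenly placed in the genome (coordinates are those of the deposited table, build v01_2). They lay on 40 of 551 scaffolds, and 42 of the 86 (48.8%) lay on 5 scaffolds, named 862, 845, 218, 842 and 656, that hold 4.94% of all models and 6.604% of the genes tested. The subunits differed in this, with 26 of 38 models of 40S (68.4%) and 16 of 48 of 60S (33.3%) on these scaffolds. The scaffolds were chosen for the number of members they hold, so that the shares are a description. Genes of other parts of the translation machinery had shares of 36% (25 models for tRNA synthetases), 23.5% (51 for translation factors), 14.1% (64 for ribosome biogenesis) and 8.47% (59 for mitochondrial ribosomal proteins) on the same scaffolds. The median log2 fold change was 0.19 for members on them and 0.21 for the others.

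There were 11 pairs of members that were direct neighbors, with 19 members, as some pairs shared a member. Of these pairs, 9 joined a 40S with a 60S gene, where 1692 of all 3403 pairs of tested members did. Of the 11 pairs, 7 (63.6%) were transcribed away from each other, against 24.5% of 12818 pairs of neighboring models over the genome. In 4 of them the starts were 138 to 168 bases apart, and each of the 4 joined genes of both subunits. Divergent pairs less than 200 bases apart made up 36.4% of the member pairs and 3.32% of all neighbors. On scaffold 1220, *PCON_02309* (S9, 32643 to 33689) and *PCON_02310* (L21-B, 33828 to 35103) were 138 bases apart. On scaffold 862, *PCON_13726* (L5, which binds the 5S rRNA, 482161 to 483618) and *PCON_13727* (S14, 483767 to 484756) were 148 bases apart. A further pair was *PCON_13274* (S19, 75236 to 76291) and *PCON_13275* (L22, 76441 to 77233) on scaffold 842, and the last *PCON_04535* (L36, 137442 to 138361) and *PCON_04536* (S12, 138530 to 139335) on scaffold 162.

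In 3 of these 4 pairs the fold changes lay close together, but those of all members tested spread little (SD 0.15 on the log2 scale). *PCON_04535* and *PCON_04536* had log2 fold changes of 0.36 and 0.37, *PCON_13726* and *PCON_13727* of 0.085 and 0.089, and *PCON_02309* and *PCON_02310* of 0.19 and 0.23. *PCON_13274* and *PCON_13275* were farther apart at 0.14 and 0.44. Over the 11 pairs of neighbors the median absolute difference of the log2 fold changes was 0.11, against 0.14 over all 3403 pairs of members. Neighbors were thus little closer than pairs of members in general. The models of 5 members overlap another model. Whether reads were counted by strand is not given in the sources used here, so that counts of these members may be shared with the other model. They were *PCON_01024* (S3), *PCON_02490* (P0), *PCON_07444* (L13) and the neighbors *PCON_13358* (S21) and *PCON_13359* (S10-A).

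Other genes of the ribosome pathway, in lists built from words in the product descriptions, were compared on the same fit. Of all genes tested, 49.7% were above 0 on this fit. At an unadjusted *P* under 0.05 from edgeR, 2.38% of them were on the higher and 4.61% on the lower side. The 45 genes tested for ribosome biogenesis, which build the subunits in the nucleolus, had a median log2 fold change of 0.25, with 34 above 0, and 4 on the higher and 0 on the lower side at an unadjusted *P* under 0.05 from edgeR. Among them was *PCON_09334* (periodic tryptophan protein 2 homolog), with 25.5, 34.0 and 35.8 CPM in DD36 replicates a, b and c, against 12.6, 15.7 and 15.8 CPM in DD24. With a standard error of 0.27, its log2 fold change came to 1.097 (adjusted *P* = 0.243, edgeR). Because the study chose this gene on these libraries, these values are no independent evidence. Separately, the study followed the gene by quantitative PCR over more time points in darkness and reported a circadian rhythm at both temperatures tested. *PCON_10193*, similar to the biogenesis factor erb1, had 56.7, 45.1 and 38.6 CPM in DD36, against 33.1, 26.2 and 27.9 CPM in DD24. The biogenesis list also took in *PCON_05888* (FHL1) by its words, which is counted again among the regulators named below. The 13 genes for RNA polymerases I and III, which make the rRNA and tRNA, had a median of 0.32 with 12 above 0 and 2 on the higher side, and the list includes subunits shared with RNA polymerase II. *PCON_13271*, for the shared subunit RPAC1, had 15.1, 23.8 and 23.0 CPM in DD36, against 7.88, 12.2 and 9.70 CPM in DD24, at 5 to 28 counts per library.

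The lists below stand beside the same shares of all genes tested, 49.7% above 0, 2.38% on the higher and 4.61% on the lower side. With the block these sides held 4.13% and 7.45%. The 55 genes for mitochondrial ribosomal proteins had a median of 0.12 with 36 above 0 (65.5%), and 3 were on the higher and 1 on the lower side (5.45% and 1.82%). The 46 genes for translation factors had a median of 0.083 with 30 above 0, and 3 and 2 on the higher and lower side, which became 5 and 2 with the block, and this list took in a transcription elongation factor by its words. For the 25 genes of tRNA synthetases the median was 0.13 with 20 above 0 and 1 on the higher side, which became 3 with the block. This list took in *PCON_01411*, whose product is named a tRNA ligase without an amino acid. The 11 genes for partners of the ribosome had a median of 0.028 with 7 above 0 and 0 on either side. In this list *PCON_01733*, for the RACK1-like protein that sits on the small subunit, had 592, 582 and 644 CPM in DD36, against 588, 483 and 486 CPM in DD24. None of these genes was called at an adjusted *P* under 0.05 with edgeR, and with the block none was called either. The lists were far below the members in level, with medians of 10.3 CPM per kilobase for biogenesis, 13.7 for the polymerases, 25.2 for the partners, 43.0 for mitochondrial ribosomal proteins, 53.0 for tRNA synthetases and 55.4 for translation factors, against 302 for the members tested.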

How the data were processed

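RNA was extracted from vegetative mycelium, made into libraries with TruSeq chemistry and sequenced by Illumina. After trimming and mapping to the reference genome v01_2, the authors deposited unnormalized read counts of 13369 predicted genes, with the lengths in bases of each gene model, its coding sequence and its untranslated regions. CASAVA 1.8.2 and DESeq are named in the submitters' processing notes. Which aligner and counter were used, and how strand and multiple matches were handled was not given in the sources used here. Ratios and *P*-values that the authors computed by LOX and DESeq were in the same table and were not used. The 6 count columns each matched the title of a library, with 0 unused. The labels name the medium WPC and the methods a minimal medium, which was not settled.

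The analysis used edgeR 4.0.16 under R 4.3.3. After filterByExpr for 2 groups 5466 genes remained, with 83 of the 86 members. TMM factors were computed, and the time points were compared by a robust quasi-likelihood fit without a block, with Benjamini-Hochberg adjustment over all genes tested at a threshold of 0.05. The counting error of shares was given by exact Clopper-Pearson intervals at 95%. The script was tested on simulated counts. CPM refers to the summed counts of tested genes times the TMM factor, and log2 CPM for correlations used a prior count of 2. For letters a, b and c, the 2 libraries of a letter deviated from their group means with correlations of 0.223, 0.272 and 0.316, above the minimum of 0.1 for a pair. The fit with the replicate block is therefore printed where it changes a count by over 1.5 times. Correlations with other letters were below 0, which follows largely from taking deviations from group means and adds no support for pairing. How cultures of a letter were related was not stated, and no other batch was labelled. Chi-square values divided by their degrees of freedom were 3.36 to 14.1 between replicates, so that none was a copy of another.

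The members and lists were chosen with earlier results of these data known. Members were named with values when they were among the 5 smallest *P* or the 3 highest or lowest levels per kilobase of a subunit, when they had a value below 0 with *P* under 0.2, when they failed the filter, and when they encoded a stalk protein, a ubiquitin fusion or a shared protein name. At most 3 genes by *P* were named from other lists. Others were named by position or level after their values were seen. Alternatives were other scalings and filters, the block alone and with scalings, DESeq2 1.42.0, limma-voom (limma 3.58.1), leaving out each library or pair, and an adjusted *P* under 0.1. Gene lengths of all 86 members equal those of the RefSeq annotation Pcon_v1.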

Additional observations from a re-analysis of the deposited data

How the results depend on the processing

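The main results depended on the scaling, the replicate block and single libraries. Over all genes tested, 0 were called by edgeR, against 53 without the filter on low counts, 71 with the replicate block, 69 with the block and RLE scaling, 77 with the block and total-count scaling, 58 with the block and totals that leave out *PCON_08583* and the phage models, 19 with DESeq2, 3 at an adjusted *P* under 0.1, and 191, 2 and 147 with the block when pair a, b or c was left out. Leaving out 1 library gave 0 to 20, the 20 without DD24 replicate c. Of the members, 19 were called with the block and total-count scaling, 1 with the same and *PCON_08583* and the phage models left out, and 8 and 2 with the block without pair a or c. In the other settings 0 members were called, and DESeq2 gave 4 of them no adjusted *P*. At an unadjusted *P* under 0.05, the 11 members became 33 with total-count scaling, 21 with *PCON_08583* and the phage models left out of the totals, 21 without the filter, 25 with the block and with the block and RLE scaling, 74 and 45 with the block and these totals, 2 with DESeq2, and 40, 5 and 22 with the block without pair a, b or c, of which 1 of the 40 and 1 of the 22 were lower. They were 3 to 17 when 1 library was left out, and 1 of 16 without DD24 replicate a was lower. The share of all genes at this unadjusted *P* was computed only for the main fit and the block. With total-count scaling 78.8% of all genes tested were above 0 (79.5% with the block), against 49.7% in the main fit. Without *PCON_08583* and the phage models these were 61.2% and 60.9%. Member counts under these totals therefore cannot be read apart from a shift of all genes.

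With total-count scaling the median over all genes became 0.23 on the log2 scale and those over all members, 40S and 60S became 0.44, 0.43 and 0.45 (0.45, 0.43 and 0.45 with the block, beside 0.23 for all genes), so that the members stayed 0.22 above all genes, as against 0.20 with TMM. With the block the split of genes called was 5 higher and 66 lower under TMM, 53 and 24 under total counts, and 7 and 51 without *PCON_08583* and the phage models. With 1 library left out the median of all members was 0.11 to 0.27. Per kilobase the 40S share was 43.2% in DD36 and 43.3% in DD24. The planned share by median log2 CPM is in another unit (40S minus 60S, 0.031 in DD36 and 0.067 in DD24), and alternatives for tables without counts did not apply.

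Values near 0 changed sign. *PCON_13643* (L3) was at 0.26 with total-count scaling and with the block and total counts, 0.070 and 0.094 without *PCON_08583* and the phage models, 0.00032 with TMM on genes that are no members, 0.0096 with no filter, 0.011 with at least 10 counts in every library, 0.020 with the block, 0.015 with the block and RLE, 0.016 with limma-voom and 0.19 with the block without pair a, and -0.14 to 0.22 when 1 library was left out. *PCON_06603* (S22) was at 0.22 and 0.24 with total counts without and with the block, 0.047 and 0.075 without *PCON_08583* and the phage models, 0.0011 with the block, 0.0078 with limma-voom, and 0.080 and 0.14 with the block without pair a or c, and -0.24 to 0.092 when 1 library was left out. *PCON_10132* (S19) was at 0.11 and 0.073 with total counts without and with the block, and -0.64 to 0.21 when 1 library was left out. *PCON_09837* (S20) was at -0.11 with the block without pair a and *PCON_13274* (S19) at -0.085 with the block without pair c. With 1 library left out these ranged over -0.038 to 0.19 and -0.051 to 0.40, *PCON_02490* (P0) over -0.021 to 0.51 and *PCON_06638* (S8-A) over -0.0012 to 0.27. The other members named by the rule kept their direction, and alternatives were not run for single members named only by position or level. The cause was not tested in any of these cases.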

Other observations

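The 5 models whose product names a ribosomal protein but fell outside the rule were 4 with products called 50S, the name used in bacteria and organelles, and a methyltransferase that acts on a ribosomal protein. Of these, 4 were tested, with a median log2 fold change of 0.16 and 0 past an unadjusted *P* of 0.05 in edgeR (1 higher with the block). *PCON_06457*, similar to 50S protein L1, had 53.3, 64.6 and 41.3 CPM in DD36 replicates a, b and c, against 44.1, 45.5 and 29.1 CPM in DD24, and the time points overlapped. A list of words for proteins that regulate ribosomal protein genes in yeast found 6 models, of which 5 were tested, with a median log2 fold change of 0.060 and 3 above 0. The models similar to FHL1, SFP1 and the kinase SCH9 were picked from it by hand. *PCON_05888* (FHL1) had 88.0, 85.9 and 81.7 CPM in DD36, against 88.2, 86.5 and 70.3 CPM in DD24, and *PCON_10912* (SFP1) had 86.9, 111 and 118 CPM in DD36, against 91.4, 86.5 and 119 CPM in DD24. *PCON_11106* (SCH9) had 73.0, 78.2 and 64.3 CPM in DD36, against 53.6, 63.8 and 58.2 CPM in DD24. The log2 fold changes were 0.060, 0.098 and 0.28, and the adjusted *P* of *PCON_11106*, the lowest of the 3, was 0.792 (edgeR). The remaining models tested are similar to forkhead proteins of other names. *PCON_04404* had 25.5, 21.3 and 39.5 CPM in DD36, against 48.8, 32.3 and 21.8 CPM in DD24, with a log2 fold change of -0.22, and *PCON_11689* had 60.2, 44.2 and 55.1 CPM in DD36, against 61.4, 62.9 and 49.7 CPM in DD24, with a log2 fold change of -0.14. The list of 56 models for sexual development used to check the tissue had 31 tested, with a median of -0.10, 12 above 0, and 1 on either side at an unadjusted *P* under 0.05 (edgeR), or 1 higher and 3 lower with the block. Beside these lists, 49.7% of all genes tested were above 0, with 2.38% on the higher and 4.61% on the lower side. With the block the sides held 4.13% and 7.45%.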
